A study of Mus musculus with 6 samples.

Results

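miR-155 was followed through miRNA sequencing of extracellular vesicles, the membrane-bound particles that cells release, isolated from mouse brain. Its members are the 2 mature miRNAs cut from its precursor, miR-155-5p and miR-155-3p. They were chosen by name, after miR-155-5p had been selected on its SE and CON levels in these libraries, and stand among the 1926 listed miRNAs, of which 775 were above 0 in at least 1 library. The 6 libraries form 2 groups of 3: one from mice that went through status epilepticus (SE), in which a seizure goes on without recovery, the other from matched controls (CON). A time of 24 hr stands in the series title, and the event it is counted from is not stated. Strain, sex, age, the means of inducing seizures and any pooling of animals are not given in the sources used here. Nothing in the labels ties replicates to separate animals, so errors and p-values cover the spread between these samples alone, and that spread may be technical.

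miR-155 comes from a short hairpin within a long non-coding RNA, Mir155hg, once known as BIC. Transcription of the host is switched on by NF-kB and AP-1 in macrophages, microglia and lymphocytes, and the 5p arm is usually the guide strand that is loaded into Argonaute. Its known targets include Socs1 and Inpp5d (SHIP1), which restrain cytokine and phosphoinositide signalling, so miR-155-5p is generally described as pro-inflammatory. Its level in brain tissue has been reported to rise after status epilepticus in rodents.

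Both members matched RefSeq mature sequences on GRCm38.p6, which are printed 5′ to 3′ because the arms differ in seed and in abundance. In the mature miRNAs capitals mark the seed, bases 2 to 8, which pairs with target messenger RNAs, and in the hairpin they mark both arms.
miR-155-5p: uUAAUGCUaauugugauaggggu
miR-155-3p: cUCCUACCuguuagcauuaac
Mir155 hairpin: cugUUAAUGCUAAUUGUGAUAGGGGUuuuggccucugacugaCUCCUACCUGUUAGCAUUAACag
The hairpin of 65 bases lies on the plus strand at chr16:84714140-84714204, inside exon 2 of both Mir155hg transcripts in the GENCODE annotation of the same assembly. The 5p arm has 23 bases and takes positions 4 to 26 of the hairpin, and the 3p arm has 21 bases at positions 43 to 63. Among 1679 mature mouse sequences, 0 others had the seed of the 5p arm and 0 others that of the 3p arm, so neither arm belongs to a seed family in that table. The 5p arm starts with U, as did 41.6% of the 646 detected miRNAs with a sequence, and the 3p arm starts with C.

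The libraries held 5482407 to 10845434 reads assigned to miRNAs, the deepest being SE replicate 1, and 573 to 616 miRNAs were above 0 in each. Values are RPM, reads scaled by the authors so that each library has the same total. Because the total is fixed, RPM are shares, and fewer vesicles from a cell type cannot be told apart from less of a miRNA per vesicle. In the authors' deposited table the CON columns do not follow the miRNA names, and each CON value below was first put back under its name. The key was the base mean in the authors' deposited fold change table, from which the second-group total of each miRNA follows once the SE reads are taken off. All 687 CON rows above 0 found their total, with a largest relative difference of 3.38e-09, and miR-155-5p had a single matching row. Size factors recomputed by the median of ratios from the reads under their put-back names differed by at most 1e-07% from those the match had needed. With the names as deposited they differed by up to 2.55%. The log2 fold changes of the authors' deposited table lay within 0.0161 of the ratios of the put-back reads over 316 miRNAs with a base mean of at least 50. The match had used their order to choose the miRNAs that gave the SE size factors, but not their values. They come from the same reads as the base means, so this check is not independent.

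Directions follow the column headers, which nothing in the files can check. The authors' deposited fold change table does not name its direction. Its values are positive where the columns headed CON are higher. DESeq2, unless told otherwise, takes the alphabetically first group as its reference, which would be CON and would make a positive value a higher level in SE. Whether a reference was set is not stated, so the libraries are called by their labels throughout, and an exchange of the headers would turn every direction.

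miR-155-5p was lower in the libraries labelled SE. Replicates 1, 2 and 3 of SE held 28.2, 26.3 and 21.4 RPM, and those of CON held 99.4, 111 and 105 RPM. The groups did not overlap, and the highest SE library lay well under the lowest CON library. The reads behind these values were 306, 158 and 143 in SE and 556, 609 and 685 in CON libraries, so the largest number of SE reads came from the deepest library. Put as frequencies, 1 miRNA read in 35443 to 46785 was miR-155-5p in SE libraries and 1 in 9002 to 10061 in CON libraries. The exact 95% Poisson intervals, which cover counting error only, ran from 18.0 to 31.6 RPM over the SE libraries and from 91.3 to 120 RPM over the CON libraries.

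**Figure D1:**
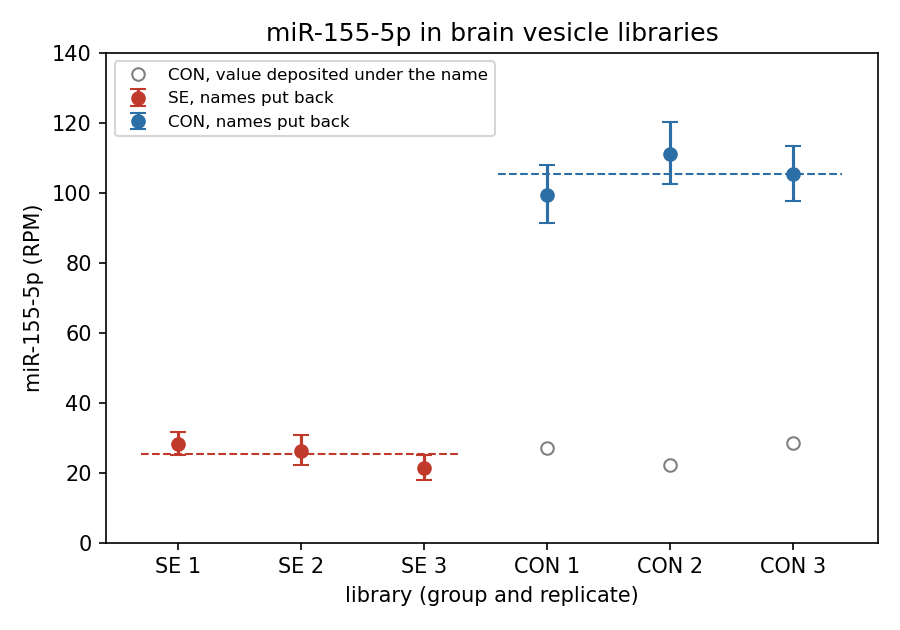
miR-155-5p in RPM (vertical axis) in each library (horizontal axis). Filled points are values under the put-back names with exact 95% Poisson intervals, dashed lines are group means, and open points are the values that stand under this name in the deposited CON columns. The 3 filled CON points lie between 99.4 and 111 RPM, above all SE points, while the open points lie among the SE points.

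The SE mean was 25.3 RPM ± 3.52 (SD, n = 3) and the CON mean 105 RPM ± 5.84 (SD, n = 3), a ratio of 4.16. Over the 9 pairings of a CON with an SE library, the ratio ran from 3.52 to 5.20. limma-trend on log2(RPM + 1) gave a difference, SE minus CON, of -2.02 with a standard error of 0.21. These values are given as a description and without a p, because the miRNA was chosen with its difference known and its CON values were assigned through the authors' base means. On the same scale the median over all 290 miRNAs that averaged 10 RPM or more was -0.07, and the central 90% ran from -0.52 to 0.33. Of the 290 miRNAs, 4 differed by more than 1 in either direction, and miR-155-5p had the lowest value of all.

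Of the 290 miRNAs tested by limma-trend, 1.03% had a Benjamini-Hochberg adjusted p under 0.05, and 0.690% had one and were lower in SE. 1 of the 2 members, miR-155-5p, is among them, which its choice on this same difference had fixed and which supports nothing. An unadjusted p under 0.05 was found for 27 of the 290, or 9.31%. miR-155-5p passed the filter of 10 RPM in every library of both groups. miR-155-3p was not tested. SE and CON values without overlap and lower in SE, as for miR-155-5p, were found for 39 of the 290, or 13.4%.

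**Figure D2:**
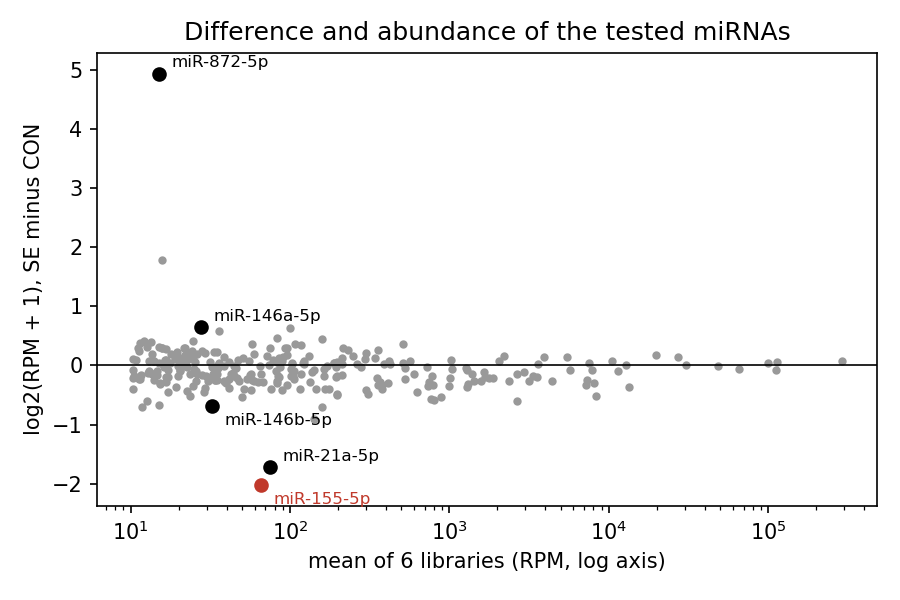
Difference of log2(RPM + 1), SE minus CON (vertical axis), against the mean RPM of the 6 libraries (log axis) for the 290 tested miRNAs, 1 point each. miR-155-5p (red) lies lowest at -2.02, next to miR-21a-5p, while most points lie near 0, and miR-872-5p lies highest.

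In the authors' deposited table miR-155-5p has a log2 fold change of 1.96 with a standard error of 0.16, positive because the sign runs toward the columns headed CON. Its base mean of 421 normalized reads is the 150th highest of 775 in the authors' deposited table. The authors' deposited table calls 8 of the 772, or 1.04%, at an adjusted p under 0.05. miR-155-5p is 1 of them, which again describes the values it was selected on. That table is not a second measurement, since it was made from the same 6 libraries and its base means placed the CON values.

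The result rests on the names of the CON rows. As deposited, the CON values of miR-155-5p stand under miR-384-5p, on row 119 of the listed miRNAs, and the values under miR-155-5p, on row 209, are those of miR-380-3p. Those values are 27.2, 22.1 and 28.6 RPM. With them the log2 difference of miR-155-5p was -0.037 with a standard error of 0.23, and its adjusted p was not under 0.05.

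The position of miR-155-5p among all miRNAs moved with the group. It ranked 206 to 211 from the top in the SE libraries and 117 to 123 in the CON libraries. By group mean it stood between miR-431-5p at 25.3 RPM and miR-551b-5p at 25.0 RPM in SE libraries. In CON libraries it stood between miR-28a-3p at 107 RPM and the merged entry miR-378a-3p/378b/378c at 103 RPM. The ranges of the 3 miRNAs above and the 3 below it overlapped its own in each group, so its order among them is not set beyond the spread. The 3 CON neighbours above it, miR-345-3p, miR-433-5p and miR-28a-3p, averaged 98.4, 94.8 and 85.2 RPM in SE libraries, with log2 differences of -0.17, -0.17 and -0.32. Those of the 3 below it, miR-378a-3p/378b/378c, miR-423-5p and miR-30c-1-3p, were -0.06, 0.34 and 0.04.

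Relative to its mean, miR-155-5p spread less between replicates in CON than in SE libraries, a difference that was not tested. Its coefficient of variation was 5.55% over the CON libraries, where counting error alone gives 4.04%. Of the 75 other miRNAs with a CON mean within 2-fold of it, 4 had a lower coefficient, and their median was 16.7%. Over the SE libraries it was 13.9%, where counting error gives 7.44%, and 42 of 115 such miRNAs had a lower one. SE replicate 3, at 21.4 RPM, was the lowest of the 6 libraries. miR-155-5p was selected on these same values, which can favour a narrow spread. The numbers of miRNAs with a lower coefficient are therefore a description and support nothing.

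miR-155-3p, the passenger arm, was listed at 0 in all 6 libraries. It has no entry in the authors' deposited fold change table, and all CON rows above 0 went to other names, so its CON values are 0 under either naming. A count of 0 allows up to 3 reads, which is 0.277 to 0.547 RPM by library. No value stands for fewer than 2 reads, and a single read could therefore lie behind a 0. Of the miR-155 reads, the 3p arm thus took 0 of 143 to 306 reads per SE library, which allows a share of up to 0.980% to 2.10% by 3 reads and 1.20% to 2.55% by the exact Clopper-Pearson 95% interval. In CON libraries it took 0 of 556 to 685 reads, which allows up to 0.438% to 0.540% by 3 reads and 0.537% to 0.661% by the exact interval. Pooled over the 6 libraries there were 2457 reads of miR-155-5p. A floor of 3 reads over all libraries puts this at 819 for each read of the 3p arm. Single reads left out in several libraries could pass that floor, so 819 is not a bound. A difference in arm use between the groups was not detectable at this depth.

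An absent passenger arm was found in a minority of precursors of similar abundance. Both arms were listed under unmerged names for 717 precursors. In 50 others the more abundant arm had reads within 2-fold of miR-155-5p, and in 7 of these the other arm was at 0. The other arm took a median of 5.18% of the reads in those 50. In 42 of them it took more than 0.122%, the pooled floor of miR-155-3p, which is likewise not a bound. Among 104 precursors with at least as many reads of their more abundant arm, the other arm was at 0 in 11, such as miR-143, miR-122 and miR-210. Among other precursors of immune cells, the 3p arm of miR-146a was at 0 beside 1171 reads of its 5p arm and that of miR-150 was at 0 beside 1473. The other arm of miR-21a held 167 reads beside 2883, all of them in CON libraries, and that of miR-142a held 431 beside 1581.

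**Figure D3:**
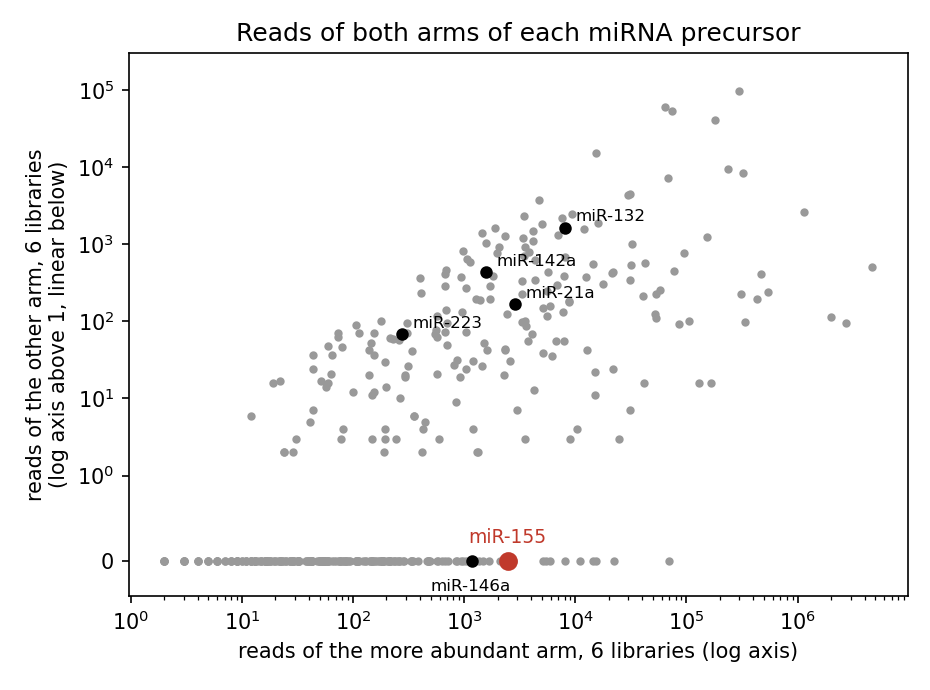
Reads of the less abundant arm (vertical axis, log above 1 and linear below) against reads of the more abundant arm (log axis), summed over 6 libraries, with 1 point per precursor. miR-155 (red) lies on the line of 0 reads at 2457 reads of its 5p arm, where 11 precursors with more reads also lie.

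The miRNAs whose levels ran most like miR-155-5p were named by Pearson's r of log2(RPM + 1) over the 6 libraries. The 6 points fall into the 2 groups, so r mainly records the step between groups. It is a description, and the group differences of miRNAs picked by it are given with no p, since the choice fixes their direction. Of 289 miRNAs compared, 5 had r above 0.9: miR-21a-5p at 0.95, let-7j at 0.94, miR-212-3p at 0.93, miR-191-5p at 0.92 and miR-429-3p at 0.90. The median r of all 289 was 0.20. miR-21a-5p, a miRNA of reactive glia and injured tissue, had 36.0, 31.7 and 33.6 RPM in the SE libraries and 117, 83.2 and 148 RPM in the CON libraries. Its log2 difference was -1.72, with a standard error of 0.23.

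The differences of the other 4 were smaller. miR-212-3p, which is transcribed under CREB, had an SE mean of 24.2 RPM ± 2.64 (SD, n = 3) and a CON mean of 40.7 RPM ± 6.46 (SD, n = 3). The log2 differences were -0.72 for miR-212-3p, -0.37 for miR-191-5p, -0.71 for miR-429-3p and -0.15 for let-7j. let-7j moved by 0.20 on the log2 scale from its lowest to its highest library, so its high r comes with a very small change.

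**Figure D4:**
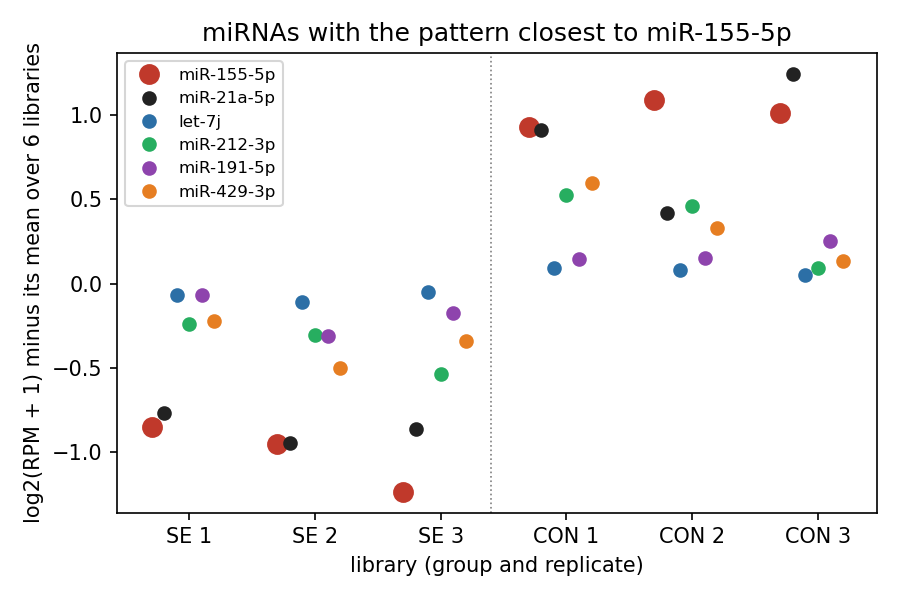
log2(RPM + 1) minus its mean over the 6 libraries (vertical axis) in each library (horizontal axis) for miR-155-5p (large red points) and the 5 miRNAs closest to it by Pearson's r. All 6 lie lower in the SE libraries, miR-155-5p and miR-21a-5p by the widest steps and let-7j by the narrowest.

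Of 19 other miRNAs linked to inflammation, 16 were tested, and by limma 1 fell (miR-21a-5p) and 0 rose. The list was chosen with earlier results of these data known, so its counts are a description and support nothing. Over all 290, 1.03% were called, 0.690% as lower in SE. An unadjusted p under 0.05 was found for 4 of the 16, beside 9.31% of all 290. Their median log2 difference was -0.14, beside -0.07 over all 290. The 3 untested ones lay under 10 RPM: miR-21a-3p, listed at 0 in SE and at 9.30 RPM ± 3.15 (SD, n = 3) in CON libraries, miR-147-3p and miR-223-3p. Without the filter limma called 4 of 775 miRNAs, miR-21a-3p among them. The most abundant were let-7e-5p (merged with let-7k), miR-9-5p, miR-125b-5p and miR-124-3p, with log2 differences of 0.0045, -0.24, -0.19 and 0.16. miR-146b-5p had -0.69 and miR-132-3p -0.51, with limma adjusted p of 0.233 and 0.393. The authors' deposited table does call miR-132-3p, with a log2 fold change of 0.41 toward the columns headed CON. Its adjusted p from the Wald test there is 0.0333. miR-146a-5p, which NF-kB induces together with miR-155 and which damps the same signalling, had 0.65 (standard error 0.26) with a limma adjusted p of 0.385. Its values were 34.9, 36.2 and 29.3 RPM in SE and 29.7, 15.9 and 19.2 RPM in CON libraries, an overlap by 1 library of each group.

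Ratios within a library do not depend on scaling to the library total. They carry the group difference on which miR-155-5p was chosen, and miR-146a-5p and miR-132-3p were added after their values were seen. A gap between groups in these ratios was therefore largely fixed beforehand and supports nothing. The ratio of miR-155-5p to miR-146a-5p was 0.807, 0.725 and 0.730 in the SE libraries, in replicate order, and 3.35, 7.00 and 5.48 in the CON libraries. The groups did not overlap, with more miR-146a-5p than miR-155-5p in each SE library and the reverse in each CON library. The ratio of miR-155-5p to miR-132-3p was 0.144 to 0.164 in SE and 0.370 to 0.535 in CON libraries, again without overlap. The ratio to miR-21a-5p was 0.636 to 0.827 in SE and 0.711 to 1.34 in CON libraries, which overlap.

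Markers of microglia and leukocytes, the cells best known for miR-155, had summed levels that overlapped between the groups. All 6 listed markers were detected and 4 were tested, of which limma called 0, beside 1.03% of all 290. At an unadjusted p under 0.05 there was 1 (miR-146a-5p), beside 9.31% of all 290. The log2 differences ran from -0.29 to 0.65. Their summed level, from 674 to 891 RPM in SE, was 877 to 1002 RPM in CON libraries, most of it from miR-342-3p. The SE and CON means of the myeloid miR-142a-3p were 9.68 RPM ± 4.41 and 10.3 RPM ± 5.34 (SD, n = 3), and those of miR-223-3p 6.24 RPM ± 2.35 and 6.76 RPM ± 4.16 (SD, n = 3). miR-155-5p was 6.40 to 16.0 times as abundant as miR-142a-3p in CON libraries and 2.07 to 4.33 times in SE libraries. The choice of miR-155-5p on its group difference largely fixed this gap beforehand, so it supports nothing. miR-142a-3p was not tested and held 431 reads over the 6 libraries. The part of these cells in the level of miR-155-5p was not tested.

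Markers of other sources gave 0 calls by limma in the main fit, beside 1.03% over all 290. At an unadjusted p under 0.05 there was 1 each among 3 astrocyte, 2 oligodendrocyte and 1 liver miRNAs tested. There were 0 among 6 neuron, 1 red cell and 2 endothelium miRNAs tested, beside 9.31% over all 290. With other settings the liver miR-122-5p was called with a pseudocount of 5 RPM and without CON replicate 3, and miR-29a-3p of the astrocyte list without CON replicate 2. The neuronal list, with all 6 members tested, summed to 19186 to 23483 RPM in SE and 21157 to 25451 RPM in CON libraries, so miRNAs of neurons were abundant in these brain vesicles. The red cell miRNAs miR-144-3p and miR-144-5p were at 0 in all libraries, and miR-451a averaged 0 RPM over SE and 0.307 RPM over CON libraries. The red cell list summed to 16.8 to 32.2 RPM in SE and 19.1 to 29.5 RPM in CON libraries, mostly from miR-486a-5p/486b-5p. The lists of astrocytes, oligodendrocytes and endothelium had median log2 differences of -0.19, -0.21 and -0.30. Both liver miRNAs were detected and 1 was tested: miR-122-5p, with a log2 difference of -0.91 and a limma adjusted p of 0.0504. The summed liver level, most of it from miR-122-5p, was 92.8 to 117 RPM in SE and 154 to 239 RPM in CON libraries, without overlap. Of all 290 miRNAs, 39, or 13.4%, likewise had no overlap and were lower in SE. The part of the liver miRNAs in the result for miR-155-5p was not tested.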

How the data were processed

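Per the labels' protocols, the RNA came from a column kit with DNase treatment and the QIAseq miRNA kit made the libraries. Aligner, counter, annotation and the use of molecular identifiers are not given in the sources used here. The submitters' processing notes name mm9 as the build and DESeq2 as a tool. The authors deposited RPM values for 6 libraries. Their fold change table gives, per the file headers, a base mean (a signal of normalized counts), a log2 fold change, its standard error, the Wald score and p-values, raw and adjusted, which were copied and not refitted. Reads were worked out from RPM steps with the lowest value of a column as 2 reads, all whole within 0.01. CON rows were put back under their names with a relative tolerance of 1e-05, and 597 of 687 had 1 candidate row and the others rows of identical reads. With the CON rows instead taken as named, 0 miRNAs could be explained.

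Differences come from limma-trend (version 3.58.1 under R 4.3.3), fitted by group to log2(RPM + 1) of miRNAs that averaged 10 RPM or more, two-sided, with Benjamini-Hochberg adjustment. RPM are not counts, so no count test was the main one. On simulated data for SE against CON with 290 miRNAs it recovered 85.3% of 2-fold and 91.3% of 4-fold changes and called 0.770% of unchanged miRNAs. The simulation changed 30 miRNAs at each fold with 1 fixed dispersion of 0.04. That is a larger part than the 3 of 290 called in these data, so its rates may not hold for them. Read numbers have exact Poisson 95% intervals and shares of the 3p arm exact Clopper-Pearson ones, beside a floor of 3 reads. Named miRNAs were the members, the 5 closest by Pearson's r, 3 neighbours in level on each side, and a list of inflammation-linked miRNAs by its called and 4 most abundant members. miR-146a-5p, miR-146b-5p, miR-132-3p and the precursors named with their arms were added after their values were seen. The members and lists were chosen with earlier results of these data known. Alternatives were other pseudocounts (0.5 and 5 RPM), a filter of 50 RPM or none, a replicate block, median-of-ratios scaling, the names as deposited and each library left out. limma-voom was added after the data were examined. Tables and plots were made in Python 3.11.15 (scipy 1.17.1, pandas 2.3.3, numpy 2.4.6, matplotlib 3.10.9).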

Additional observations from a re-analysis of the deposited data

How the results depend on the processing

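The log2 difference of miR-155-5p, SE minus CON, ran from -2.10 to -1.87 over 13 settings under the put-back names, the smallest size being with a pseudocount of 5 RPM. Its adjusted p was under 0.05 in each, which is no sign of stability for a miRNA selected on this difference. With each library left out in turn it ran from -2.10 to -1.91. With the names as deposited it was -0.037 and its adjusted p was not under 0.05. The number of miRNAs called was 3, and 3 to 6 with a library left out, namely 6 without CON replicate 2 and 5 without CON replicate 3. It was 4 with a pseudocount of 5 RPM and 4 without a filter. With a filter of 50 RPM it was 2, and miR-872-5p was not among them. With the names as deposited limma-trend called 0 of 289, with 2 at an unadjusted p under 0.05, where the put-back names gave 27 of 290. No other naming or tool was run on those values. With the replicate block the difference was -2.02 and 3 miRNAs were called. Same-numbered libraries had correlations of deviations of -0.42, -0.25 and 0.04, and 0 of 6 libraries correlated best with their own number, so the numbers were not taken as pairs. The share of the 3p arm was 0% in every setting run. miR-155-3p, at 0 in all libraries, gives no difference under any setting. edgeR on recovered reads was not run, because no column shows a value of 1 read, so its RPM do not pass as multiples of their lowest value. Median-of-ratios scaling moved the median of all 290 miRNAs from -0.07 to 0.03 and miR-155-5p to -1.92. Depth limits the 3p arm to what a floor of 3 reads per library can show.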

Other observations

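The miRNA whose pattern ran most opposite to miR-155-5p over the 6 libraries was miR-872-5p, with Pearson's r of -0.99 on log2(RPM + 1). Under the put-back names miR-872-5p had 686 reads over the SE libraries and 0 over the CON libraries. It passed the filter of 10 RPM through the SE libraries alone, and its r mainly records that step rather than a graded pattern. The other arm of its precursor held 237 reads in SE and 222 in CON libraries. The 6 points fall into the 2 groups, and no p is given.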
